A study of Solanum lycopersicum with 12 samples.

Results

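The WRKY family of tomato (*Solanum lycopersicum*) was examined in the transcriptome of young fruits, as the genes whose deposited NR annotation (the name of the best match in a protein database) contains the word WRKY. There were 67 such genes among the 22827 genes of the table. A WRKY domain was also recorded by Pfam for 65 of them. The other members, gene5028 and gene28812, were both annotated as a probable WRKY transcription factor protein 1 without this domain, so the name of gene5028 in particular is uncertain. Conversely, gene19047 and gene22016 carried the domain but not the word, and were not counted as members.

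WRKY proteins are plant transcription factors that are named after a short, nearly invariant peptide in their DNA-binding domain, which is followed by a zinc finger. They bind the W-box, a promoter element with the core TTGAC, and many WRKY genes carry W-boxes themselves and act on each other. In leaves they are best known from the response to pathogens, where MAP kinases phosphorylate some of them, and from senescence, while other members act in trichomes, seed coats, stem walls and shoot branching. The numbers in the annotation follow the best match, usually an Arabidopsis gene, and do not name a tomato gene uniquely. Roles given below are those known in Arabidopsis unless tomato is named.

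RNA was sequenced from whole 5 DPA (days post anthesis) fruits, with the young seeds inside, of the cultivar Micro-Tom. The 4 groups were the WT and plants that overexpress the grape (*Vitis vinifera*) sucrose transporters *VvSUC11*, *VvSUC12* or *VvSUC27* (*VvSUC11*-OE, *VvSUC12*-OE and *VvSUC27*-OE), with 3 libraries in each group and 12 in all. The transgenes were driven by the constitutive 35S promoter, and each genotype was represented by a single line, from the T1 generation for *VvSUC11*-OE and *VvSUC12*-OE and from the T0 generation for *VvSUC27*-OE. Genotype and line therefore cannot be told apart in any comparison, nor genotype and generation in those of *VvSUC27*-OE fruits. The replicates were described as independent biological samples, without saying whether they came from different plants. The p-values therefore rest on the spread between libraries within a line, not between lines of a genotype.

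Expression is given as FPKM (fragments mapped to a gene, relative to the length of its transcript and the size of the library), which allows levels of different genes to be set side by side. Changes were fitted on a second deposited measure, counts that the authors scaled to a common library size and rounded (scaled counts), which summed to between 20530052 and 21795363 per library. A differentially expressed gene (DEG) had a Benjamini-Hochberg adjusted p under 0.01, over all tested genes, and a log2 fold change (log2FC) above 1 in size in limma's test of log2(scaled count + 1). A gene was tested where 3 or more of the 6 libraries of a comparison reached 10 scaled counts. The 3 comparisons with the WT share the same WT libraries, so their results are not independent of each other.

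The labelled tissue was checked by markers of young fruit. The fruit identity gene *TAGL1* (gene18532) had 107 to 139 FPKM over the libraries. Polygalacturonase-2 (gene25136), a gene of ripe fruit, was listed at 0 in WT and *VvSUC27*-OE libraries. It had 1.43 to 1.69 FPKM in *VvSUC11*-OE and 0.457 to 0.88 FPKM in *VvSUC12*-OE libraries. Though low, it was an upregulated DEG in both of these lines, tested through their libraries alone. Phytoene synthase 1 (gene7166), a carotenoid enzyme of ripening fruit, had 28.8 ± 0.559 FPKM (SD, n = 3) in the WT, and 64.6 ± 1.97, 29 ± 0.882 and 39.9 ± 0.913 FPKM for the *VvSUC11*-, *VvSUC12*- and *VvSUC27*-OE lines. The MADS-box gene *TDR4* (gene15947) was at 17.2 to 19.4 FPKM in the WT and at 45.3 to 69.9 FPKM over the libraries of the lines. The part of a difference in fruit stage in the WRKY values was not tested. Markers of seeds moved with the genotype. Of 28 seed genes (oleosins, storage proteins and late embryogenesis proteins), 12 of 17 tested genes rose and 0 fell in *VvSUC11*-OE fruits, 1 of 6 rose and 1 fell in *VvSUC12*-OE fruits, and 0 of 6 rose and 3 fell in *VvSUC27*-OE fruits. Over all tested genes, 7.39% rose and 7.33% fell in the first line, 3.31% and 5.3% in the second, and 3.8% and 7.21% in the third. Most of the 17 seed genes passed the filter only with the help of *VvSUC11*-OE libraries, as 6 were tested in each other line. The direction of their change is largely set by this. The 12 of 17 therefore cannot be compared with the counts of the other lines or with the shares over all tested genes. The summed FPKM of the seed genes was 127 to 133 in the WT, 117 to 172 in *VvSUC11*-OE, 140 to 164 in *VvSUC12*-OE and 47.0 to 50.4 in *VvSUC27*-OE libraries. The number of them at 0 in every library of a group was 5, 3, 13 and 12, in the same order. By contrast, *AGL11* (gene15601), a MADS-box gene of ovules and seed coats, was lower in each line, also in *VvSUC11*-OE fruits, where 12 of 17 tested seed genes rose. It had 90.1 to 96.1 FPKM in the WT against 12.2 to 16.1 in *VvSUC11*-OE, 34.7 to 35.9 in *VvSUC12*-OE and 15.4 to 19.9 in *VvSUC27*-OE libraries. In whole fruits, fewer cells of a type and less RNA per cell cannot be told apart, and the part of seed tissue in the WRKY values was not tested.

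Most WRKY genes were weakly expressed in the young WT fruit. Of the 67 genes, 15 had a mean of at least 10 FPKM, 19 had 1 to 10 FPKM and 33 had less than 1 FPKM. The median was 1.02 FPKM, against 9.42 FPKM over all genes of the table. The most abundant of these members was gene19222 (WRKY11), with 88.6 ± 1.01 FPKM (SD, n = 3). It was followed by gene15850 (WRKY1) with 44.2 ± 1.99, gene7742 (WRKY4) with 43.7 ± 1.64, gene2257 (annotated as a WRKY transcription factor without a number) with 35.1 ± 0.444, and gene8181 (WRKY70) with 32.1 ± 1.09 FPKM. The second and the third of these overlapped between libraries, whereas the others did not overlap with their neighbours in this order. Together these 5 genes held 46.5% of the summed WRKY FPKM in the WT. The order and this share hold for the members alone. gene22016, which has the domain but not the word, had 71.9 ± 4.66 FPKM in the WT and was not ranked.

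The summed FPKM of the family was lower in each line than in the WT. It was 520 to 526 in WT libraries, 444 to 465 in *VvSUC11*-OE, 437 to 455 in *VvSUC12*-OE and 338 to 357 in *VvSUC27*-OE libraries. The ranges of *VvSUC11*-OE and *VvSUC12*-OE overlapped, and the others did not. Most of the difference lay in the 5 genes most abundant in the WT. Their sum was 244 ± 3.54 FPKM (SD, n = 3) in the WT, and 151 ± 4.81, 173 ± 7.30 and 97.7 ± 4.90 FPKM in the *VvSUC11*-, *VvSUC12*- and *VvSUC27*-OE fruits, or 61.9%, 70.9% and 40.0% of the WT. As these genes were picked for their WT level, this is given as a description. The sum of the remaining members was 107%, 96.8% and 87.5% of the WT. This sum includes gene5028, which lacks a WRKY domain. It had 13.2 to 16.7 FPKM in WT and 40.0 to 41.2 FPKM in *VvSUC11*-OE libraries. Its increase was larger than that of the whole sum, from 281 to 300 FPKM on average. The value of 107% therefore does not show a rise of the other members in sum.

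**Figure D1:**
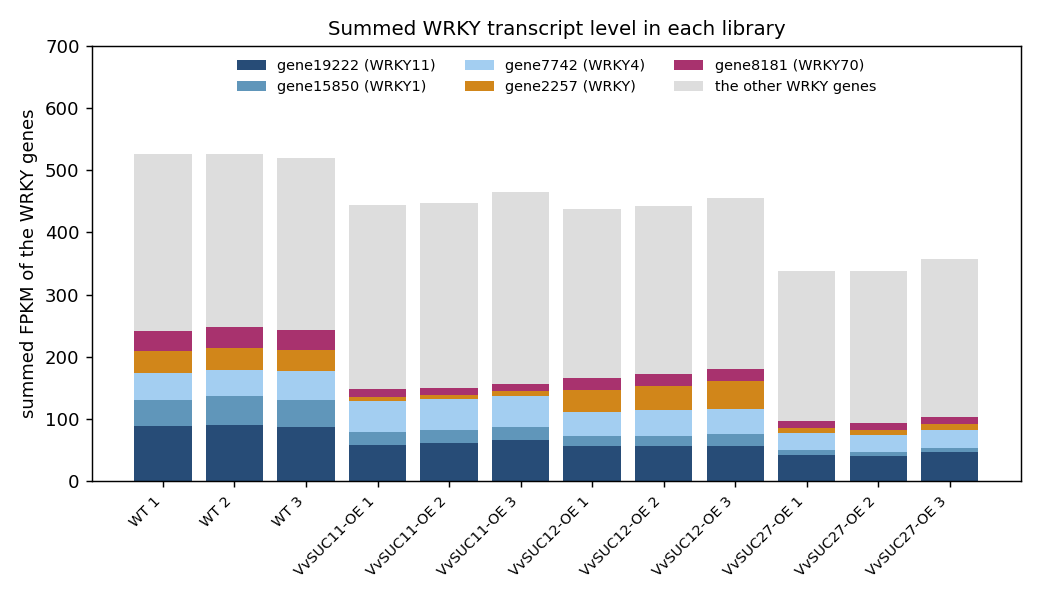
Summed FPKM of the 67 WRKY genes in each of the 12 libraries (vertical axis, FPKM), with the 5 genes most abundant in the WT in colour and all others in grey. The WT bars reach 520 to 526 FPKM and those of *VvSUC27*-OE 338 to 357 FPKM, and the coloured part shrinks from 244 FPKM in the WT to 97.7 FPKM in *VvSUC27*-OE fruits on average.

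Of the 67 members, 43 were tested in at least 1 comparison and 24, with at most 19 scaled counts in any library, in none. In *VvSUC11*-OE fruits, 7 of 43 tested WRKY genes were upregulated and 11 downregulated, or 16.3% and 25.6%, where 7.39% of all tested genes were upregulated and 7.33% downregulated. In *VvSUC12*-OE fruits, 1 of 41 was upregulated and 9 were downregulated, or 2.44% and 22%, against 3.31% and 5.3% of all tested genes. In *VvSUC27*-OE fruits, 2 of 42 were upregulated and 11 downregulated, or 4.76% and 26.2%, against 3.8% and 7.21%. The downregulated shares were thus above that of all tested genes in each line, and the upregulated share was above it by more than 1 percentage point in *VvSUC11*-OE fruits alone. A gene that passes the filter through 1 group alone has the direction of its change largely set by it. In *VvSUC11*-OE fruits this held for gene1086 among the upregulated and for gene21965 and gene28822 among the downregulated members. In *VvSUC27*-OE fruits it held for gene21175, which was downregulated. The same filter was used for all genes.

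The median log2FC of the tested WRKY genes was 0.14, -0.06 and -0.09 for the *VvSUC11*-, *VvSUC12*- and *VvSUC27*-OE lines, against -0.03, -0.01 and 0.00 over all tested genes. With the threshold on the adjusted p alone, 17 WRKY genes were higher and 16 lower in *VvSUC11*-OE fruits, 6 were higher and 14 lower in *VvSUC12*-OE fruits, and 7 were higher and 15 lower in *VvSUC27*-OE fruits. These were 39.5% and 37.2%, 14.6% and 34.1%, and 16.7% and 35.7% of the tested WRKY genes, against 24.1% and 28.5%, 18.2% and 21.3%, and 21.6% and 22.8% of all tested genes. The upregulated count of *VvSUC12*-OE fruits was 3 without WT replicate 2 and 2 without WT replicate 3, and that of *VvSUC27*-OE fruits was 1 without *VvSUC27*-OE replicate 3.

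**Figure D2:**
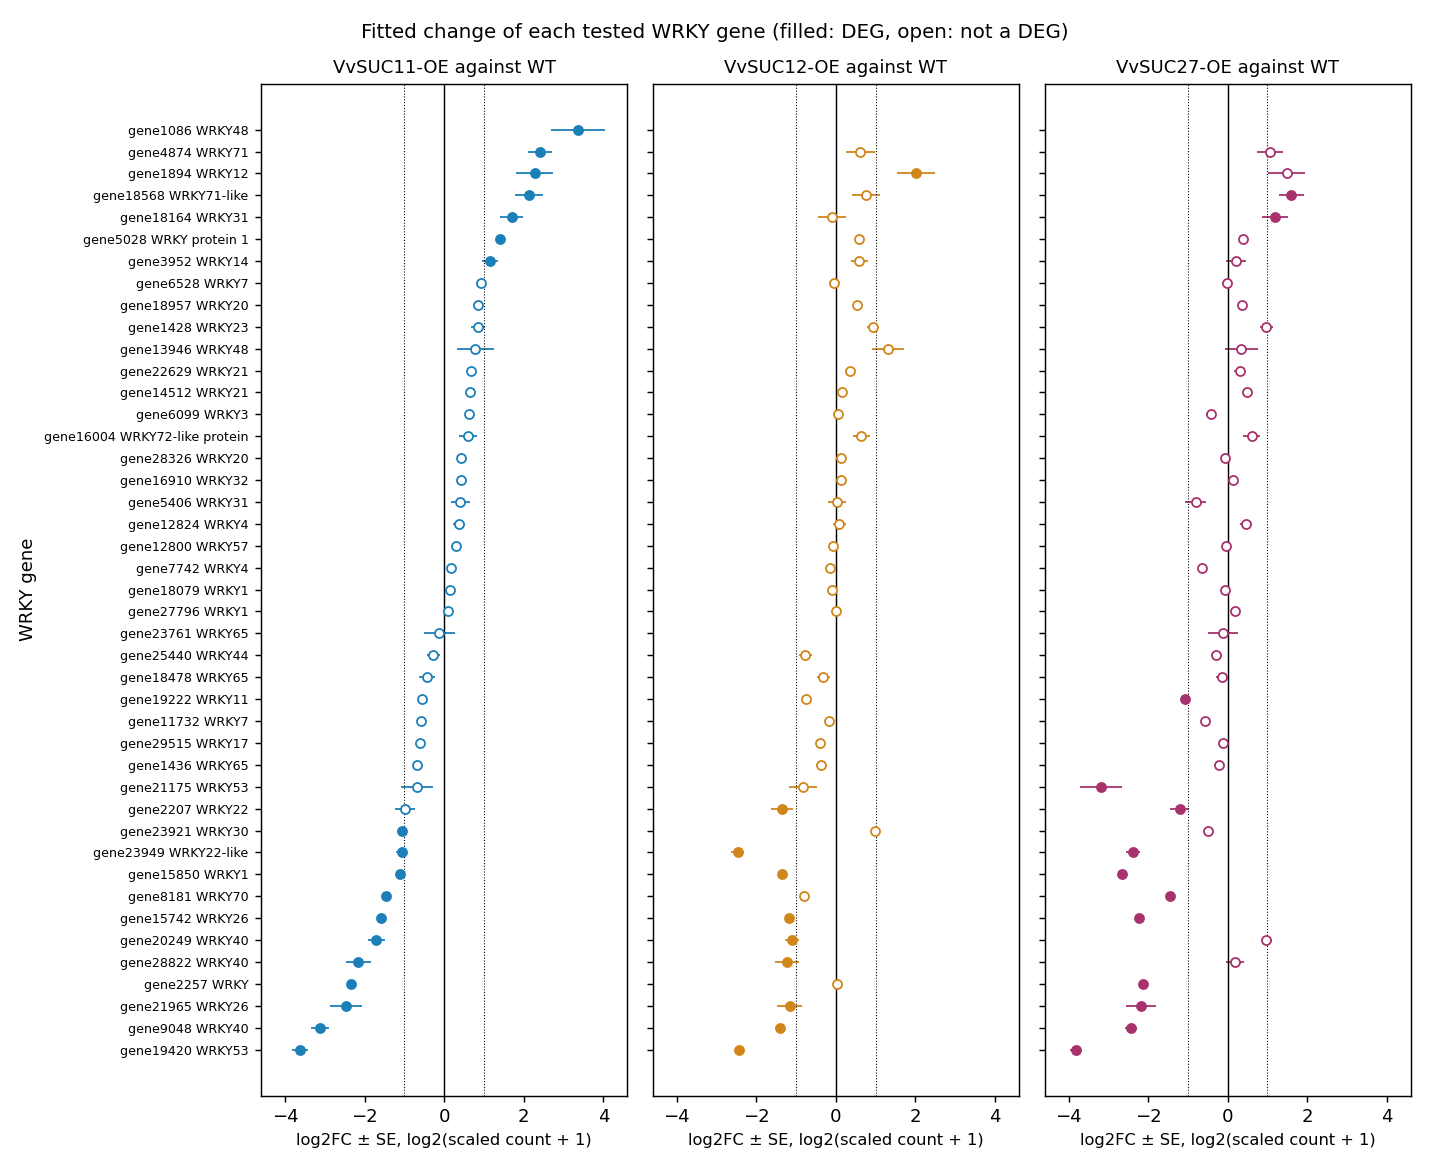
Fitted log2FC of each tested WRKY gene against the WT in the 3 lines (horizontal axes, log2 scale of scaled count + 1; bars are 1 SE), in the order of *VvSUC11*-OE, with DEGs filled and dotted lines at -1 and 1. The genes at the bottom, such as gene19420 (WRKY53) at -3.63, -2.44 and -3.82, lie left of zero in each panel, whereas gene2257, gene20249 and gene23921 change sides or return to zero between panels.

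Among the tested members, the strongest decreases by fold in FPKM in *VvSUC11*-OE and *VvSUC27*-OE fruits were those of gene19420, annotated as WRKY53. WRKY53 is a regulator of leaf senescence. Its expression was 17.8, 15 and 17.2 FPKM in the WT libraries, against 1.65, 0.920 and 1.67 in *VvSUC11*-OE, 2.66, 3.07 and 3.76 in *VvSUC12*-OE, and 0.917, 1.26 and 1.36 in *VvSUC27*-OE libraries. Each transgenic library was thus far below every WT library, and among the lines *VvSUC12*-OE fruits had the most. The mean FPKM was 11.8-, 5.26- and 14.1-fold lower than in the WT, and the log2FC was -3.63 (SE 0.20), -2.44 (SE 0.12) and -3.82 (SE 0.15), with limma adjusted p = 5.59e-10, 1.14e-11 and 5.02e-13. Between lines it was a DEG in *VvSUC12*-OE against *VvSUC11*-OE fruits (log2FC 1.19) and in *VvSUC27*-OE against *VvSUC12*-OE fruits (-1.38), but not between *VvSUC27*-OE and *VvSUC11*-OE fruits (-0.19, 95% interval -0.80 to 0.42). A second gene annotated as WRKY53, gene21175, was far weaker. It had 19, 25 and 12 scaled counts in the WT and 0, 2 and 2 in *VvSUC27*-OE fruits, at least 6.22-fold lower against a floor of 3 counts per library, and was not called in the other lines.

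Of the 4 genes annotated as WRKY40, 3 were tested. WRKY40 acts with its close relatives as a repressor in defence and abscisic acid signalling. gene9048 fell in each line. Its expression was 5.49, 6.12 and 6.01 FPKM in the WT, 0.650, 1.03 and 0.488 in *VvSUC11*-OE, 2.43, 2.17 and 2.7 in *VvSUC12*-OE, and 1.16, 1.20 and 1.26 FPKM in *VvSUC27*-OE libraries. The decrease was 8.11-, 2.42- and 4.87-fold, with a log2FC of -3.13, -1.40 and -2.43 (SE 0.22, 0.13 and 0.16). The level was higher in *VvSUC12*-OE than in *VvSUC11*-OE fruits (log2FC 1.73, limma adjusted p = 1.43e-05) and lower in *VvSUC27*-OE than in *VvSUC12*-OE fruits (-1.02, limma adjusted p = 0.000308).

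The other tested WRKY40 genes followed a different order. gene20249 had 4.28, 4.21 and 4.78 FPKM in the WT, and fell to 1.49, 1.29 and 1.55 in *VvSUC11*-OE and to 2.36, 2.26 and 2 in *VvSUC12*-OE libraries. In *VvSUC27*-OE libraries it had 8.09, 9.43 and 10 FPKM, above every WT library. The log2FC was -1.71, -1.10 and 0.97 (SE 0.20, 0.18 and 0.14), the last just below the threshold for a DEG (limma adjusted p = 1.35e-05). Without WT replicate 3 the change in *VvSUC12*-OE fruits was -0.996 and no longer a DEG (likewise -0.97 with FPKM in place of scaled counts), and that in *VvSUC27*-OE fruits was 1.08 and a DEG. *VvSUC27*-OE fruits exceeded *VvSUC11*-OE fruits 6.34-fold and *VvSUC12*-OE fruits 4.16-fold in FPKM (log2FC 2.68 and 2.08, limma adjusted p = 7.08e-10 and 1.57e-09). The same order was seen in gene28822, at lower level. It had 1.63 ± 0.257 FPKM (SD, n = 3) in the WT, 0.353 ± 0.0668 in *VvSUC11*-OE, 0.684 ± 0.168 in *VvSUC12*-OE and 1.84 ± 0.280 FPKM in *VvSUC27*-OE fruits. *VvSUC27*-OE and WT libraries overlapped (log2FC 0.19, 95% interval -0.29 to 0.67), whereas the decreases in the other lines were DEGs (-2.16 and -1.23). The second of these was lost without WT replicate 1 or without *VvSUC12*-OE replicate 1 (limma adjusted p = 0.0142 and 0.0109). The fourth gene, gene20250, carries the identifier next to gene20249, and had 3, 5 and 3 scaled counts in the WT and at most 2 in any transgenic library. Reads of such similar genes could have been split between them in the authors' counting.

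Among the members related to WRKY33, gene15742 was the most abundant. It is annotated as WRKY26, a relative of WRKY33 with a role in heat tolerance. RefSeq lists this gene as *WRKY31*, with the synonyms *SlDRW1* and *SlWRKY33A*. That symbol is distinct from the annotation WRKY31 of gene18164 and gene5406. *SlDRW1* is known in tomato for resistance to the grey mould fungus *Botrytis cinerea*. gene15742 had 24.8, 26.0 and 24 FPKM in the WT, 8.29, 8.24 and 8.27 in *VvSUC11*-OE, 10.6, 11 and 12 in *VvSUC12*-OE, and 4.97, 4.94 and 5.99 FPKM in *VvSUC27*-OE libraries. No library of a group overlapped with one of another group, and the order from high to low was WT, *VvSUC12*-OE, *VvSUC11*-OE and *VvSUC27*-OE. The log2FC was -1.60, -1.18 and -2.23 (SE 0.06, 0.06 and 0.08), with limma adjusted p = 6.83e-12, 1.14e-11 and 4.59e-14. A further gene annotated as WRKY26, gene21965, had 0.866 ± 0.105 FPKM (SD, n = 3) in the WT, and 0.162 ± 0.0693, 0.395 ± 0.138 and 0.198 ± 0.0996 FPKM in the lines. Its decrease was a DEG in *VvSUC11*-OE and *VvSUC27*-OE fruits (log2FC -2.47 and -2.18). In *VvSUC12*-OE fruits it passed narrowly (log2FC -1.17, limma adjusted p = 0.00405), and the call was lost without any 1 library of the WT and without *VvSUC12*-OE replicate 1 or 3 (limma adjusted p = 0.0123 to 0.0249).

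gene15850, annotated as WRKY1, was the second most abundant member. It had 42.8, 46.5 and 43.3 FPKM in the WT, 20.7, 20.5 and 20.9 in *VvSUC11*-OE, 16.7, 16.5 and 19.1 in *VvSUC12*-OE, and 7.84, 6.81 and 6.36 FPKM in *VvSUC27*-OE libraries. All groups were again separate, with *VvSUC27*-OE fruits lowest. The decrease was 2.13-, 2.53- and 6.31-fold, with a log2FC of -1.10, -1.36 and -2.66 (limma adjusted p = 7.81e-11, 1.74e-12 and 3.28e-15). *VvSUC27*-OE fruits were also lower than *VvSUC11*-OE fruits (log2FC -1.56, limma adjusted p = 6.78e-11) and *VvSUC12*-OE fruits (-1.30, limma adjusted p = 5.28e-10). The other genes annotated as WRKY1, gene18079 and gene27796, had a log2FC between -0.11 and 0.18 in the 3 comparisons with the WT, and neither was a DEG.

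WRKY22 acts downstream of a MAP kinase cascade that responds to bacterial flagellin. Of the genes with this name, gene23949 (WRKY22-like) had 8.27, 7.33 and 8.72 FPKM in the WT, 4.39, 3.66 and 4.09 in *VvSUC11*-OE, 1.29, 1.45 and 1.84 in *VvSUC12*-OE, and 1.44, 1.32 and 1.96 FPKM in *VvSUC27*-OE libraries. It was thus lower in each line, and lower in *VvSUC12*-OE and *VvSUC27*-OE than in *VvSUC11*-OE fruits (log2FC -1.39 and -1.30, limma adjusted p = 8.14e-06 and 2.89e-05). Against the WT the log2FC was -1.07, -2.47 and -2.38 (SE 0.13, 0.17 and 0.17). With FPKM in place of scaled counts, the first of these was -0.98 and no longer a DEG. gene2207 (WRKY22) fell from 2.15 ± 0.502 FPKM (SD, n = 3) to 0.851 ± 0.234 FPKM in *VvSUC12*-OE and to 0.903 ± 0.143 FPKM in *VvSUC27*-OE fruits (log2FC -1.35 and -1.20, the first not called without the trend, limma adjusted p = 0.0107). It had 1.11 ± 0.230 FPKM in *VvSUC11*-OE fruits, where its log2FC of -0.98 was just short of the threshold, and was -1.18 and a DEG without WT replicate 2.

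**Figure D3:**
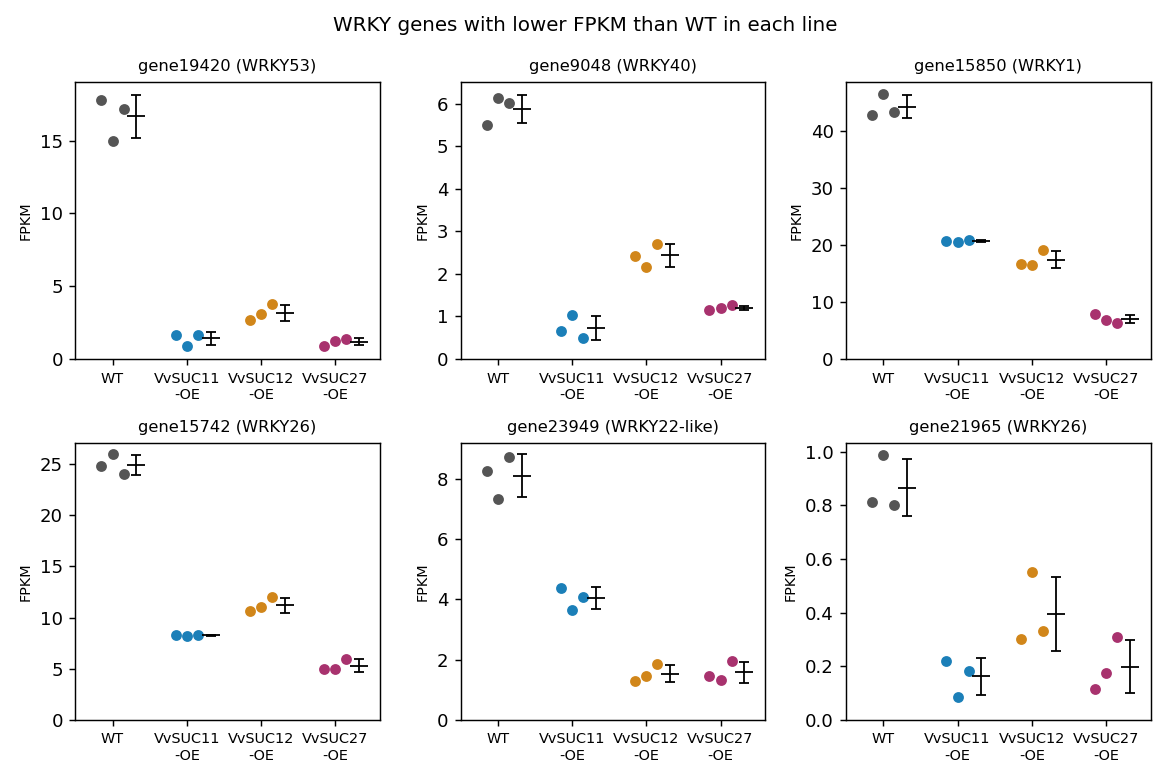
FPKM (vertical axes, linear, from 0) of the 6 WRKY genes that were downregulated DEGs in each of the 3 comparisons with the WT, which share the WT libraries; points are libraries, bars the mean ± SD of 3. In gene19420 the WT points sit at 15 to 17.8 FPKM and all transgenic points at 0.917 to 3.76 FPKM, and in gene15850 and gene15742 the *VvSUC27*-OE points are the lowest.

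Other abundant members separated the lines from each other. gene2257, the unnumbered WRKY factor, had 35.3, 35.3 and 34.6 FPKM in the WT, and 35.8, 39.2 and 44.9 FPKM in *VvSUC12*-OE libraries. In *VvSUC11*-OE libraries it had 6.15, 6.34 and 8.20, and in *VvSUC27*-OE libraries 7.23, 7.56 and 9.83 FPKM. It was therefore near the WT level in *VvSUC12*-OE fruits (log2FC 0.04, 95% interval -0.09 to 0.16) and a downregulated DEG in *VvSUC11*-OE and *VvSUC27*-OE fruits (log2FC -2.35 and -2.14, limma adjusted p = 8.92e-12 and 6.46e-13). Between these the log2FC was 0.21 (95% interval -0.06 to 0.49), and *VvSUC12*-OE fruits were above both (log2FC 2.39 over *VvSUC11*-OE, and -2.18 for *VvSUC27*-OE against *VvSUC12*-OE fruits).

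In gene8181, annotated as WRKY70, *VvSUC12*-OE fruits were again above the other lines, by smaller gaps. Unlike in gene2257, each line was below the WT. WRKY70 sets the balance between salicylic acid and jasmonate signalling and delays senescence. Its libraries ranged from 31.3 to 33.3 FPKM in the WT, 11.6 to 12.7 in *VvSUC11*-OE, 18.8 to 19.2 in *VvSUC12*-OE and 11.5 to 11.9 FPKM in *VvSUC27*-OE fruits. The log2FC was -1.47 and -1.46 in *VvSUC11*-OE and *VvSUC27*-OE fruits, both DEGs. In *VvSUC12*-OE fruits it was -0.81, which passed the adjusted p (6.28e-09 by limma) but not the threshold on the fold change. *VvSUC11*-OE and *VvSUC27*-OE fruits differed by a log2FC of 0.01 (95% interval -0.20 to 0.22).

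gene23921, annotated as WRKY30, was the member with the widest gap between *VvSUC11*-OE and *VvSUC12*-OE fruits after gene2257. WRKY30 is induced by oxidative stress and pathogens. It had 15.4, 17.7 and 14.4 FPKM in the WT, 8.75, 6.91 and 9.30 in *VvSUC11*-OE, 33.7, 32.9 and 38.0 in *VvSUC12*-OE, and 11.6, 11.2 and 13.3 FPKM in *VvSUC27*-OE libraries. *VvSUC12*-OE libraries thus lay above, and those of the other lines below, every WT library. The log2FC was -1.06 (a DEG), 0.99 and -0.48 (SE 0.12, 0.08 and 0.09). The first and the second lie close to the threshold. The decrease in *VvSUC11*-OE fruits was -0.98 without WT replicate 2, -0.92 without *VvSUC11*-OE replicate 2 and -0.93 with FPKM, and the increase in *VvSUC12*-OE fruits was 1.14 with FPKM and then a DEG. *VvSUC12*-OE fruits exceeded *VvSUC11*-OE fruits 4.19-fold in FPKM (log2FC 2.05, limma adjusted p = 3.51e-12), and *VvSUC27*-OE fruits were lower than *VvSUC12*-OE fruits (log2FC -1.47, limma adjusted p = 6.99e-12).

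**Figure D4:**
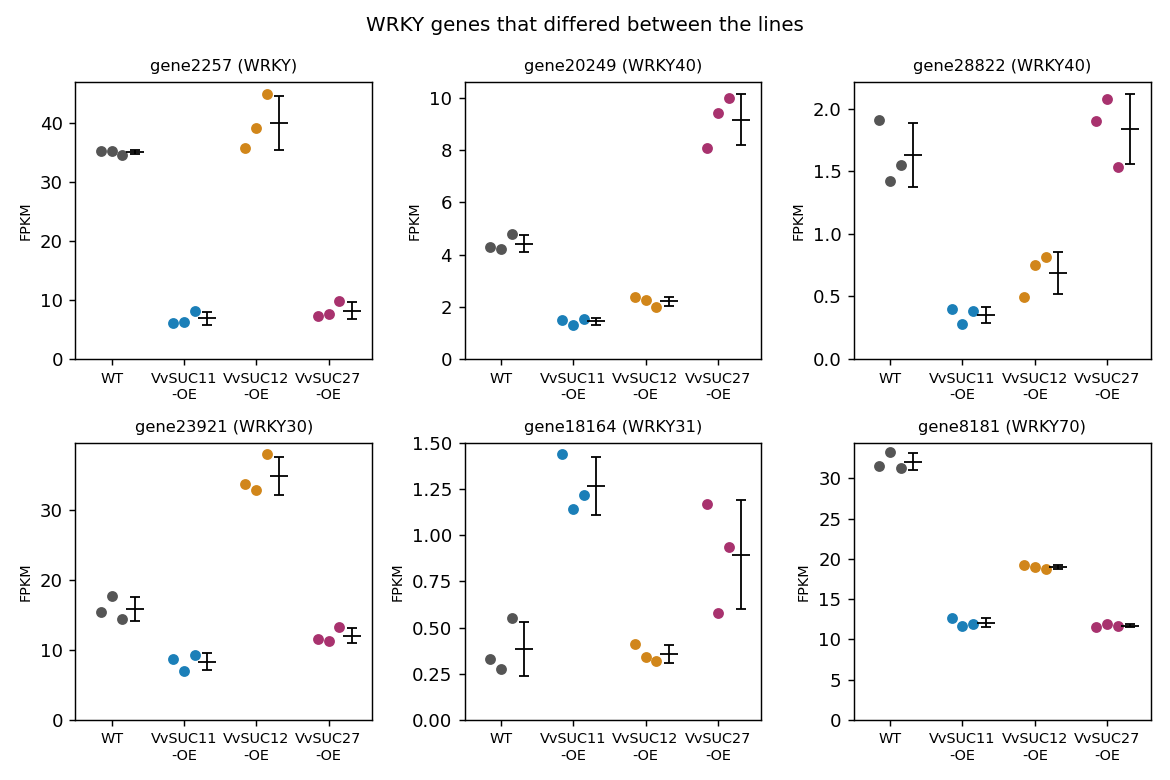
FPKM (vertical axes, linear, from 0) of 6 WRKY genes whose level differed between the lines; points are libraries, bars the mean ± SD of 3. gene2257 stays at 35.8 to 44.9 FPKM in *VvSUC12*-OE fruits and drops to 6.15 to 9.83 FPKM in the other lines, gene20249 is highest in *VvSUC27*-OE fruits (8.09 to 10 FPKM), and gene23921 in *VvSUC12*-OE fruits (32.9 to 38.0 FPKM).

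Pfam records a plant zinc cluster domain in 6 members, which marks a WRKY subgroup whose proteins bind calmodulin and that includes the negative defence regulators WRKY11 and WRKY17. In sum these genes had 166 ± 2.08 FPKM (SD, n = 3) in the WT, 156 ± 7.82 in *VvSUC11*-OE, 134 ± 3.04 in *VvSUC12*-OE and 125 ± 5.11 FPKM in *VvSUC27*-OE fruits. All 6 were tested in each comparison, and a DEG was found once, gene19222 (WRKY11) in *VvSUC27*-OE fruits. This gene had 88.4, 89.7 and 87.7 FPKM in the WT, 58.5, 62.2 and 66.4 in *VvSUC11*-OE, 55.8, 56.0 and 56.9 in *VvSUC12*-OE, and 42.3, 39.7 and 46.4 FPKM in *VvSUC27*-OE libraries. It remained the most abundant of the members in *VvSUC11*-OE and *VvSUC12*-OE fruits, where gene22016, not a member, had 59.1 ± 0.387 and 48.7 ± 3.66 FPKM. In *VvSUC27*-OE fruits the 42.8 ± 3.37 FPKM (SD, n = 3) of gene19222 overlapped with the 43.2 ± 1.29 FPKM of gene14512. The log2FC of gene19222 was -0.56, -0.75 and -1.07 (SE 0.04, 0.04 and 0.05), each past the adjusted p. The rest of the subgroup moved both ways. gene14512 (WRKY21) had 31.0 ± 1.45 FPKM in the WT and 49.1 ± 0.799, 34.5 ± 1.05 and 43.2 ± 1.29 FPKM in the lines, with a log2FC of 0.66, 0.16 and 0.48. gene6528 (WRKY7) was higher in *VvSUC11*-OE fruits (log2FC 0.92, limma adjusted p = 4.34e-06) and close to the WT in *VvSUC12*-OE and *VvSUC27*-OE fruits (-0.06 and -0.01). gene11732, also annotated as WRKY7, had a log2FC of -0.59, -0.17 and -0.56.

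WRKY3 and WRKY4 have roles in resistance to necrotrophic fungi. gene7742 (WRKY4) was the one gene among the 5 most abundant that was not a DEG in any comparison. It had 43.7 ± 1.64 FPKM (SD, n = 3) in the WT, 49.4 ± 0.0637 in *VvSUC11*-OE, 39.9 ± 1.63 in *VvSUC12*-OE and 28.0 ± 0.736 FPKM in *VvSUC27*-OE fruits. The log2FC of 0.17, -0.14 and -0.65 passed the adjusted p each time (limma adjusted p = 0.00154, 0.00935 and 4.68e-10). gene6099 (WRKY3) was highest in *VvSUC11*-OE fruits, with 9.22 ± 0.751 FPKM against 5.93 ± 0.515 in the WT, and lowest in *VvSUC27*-OE fruits, with 4.50 ± 0.663 FPKM. It was a DEG between these lines (log2FC -1.04, limma adjusted p = 5.45e-07) and in no comparison with the WT. The same held for gene5406 (WRKY31), with a log2FC of -1.21 for *VvSUC27*-OE against *VvSUC11*-OE fruits (limma adjusted p = 0.00129).

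The upregulated members were mostly weakly expressed. In *VvSUC11*-OE fruits they included gene4874 and gene18568, annotated as WRKY71 and WRKY71-like. WRKY71 promotes branching and flowering. gene4874 rose from 0.769, 0.384 and 0.663 FPKM in the WT to 3.81, 2.87 and 3.02 FPKM in *VvSUC11*-OE libraries (log2FC 2.40, SE 0.30, limma adjusted p = 5.21e-06). It had 0.937 ± 0.0798 FPKM (SD, n = 3) in *VvSUC12*-OE and 1.23 ± 0.114 FPKM in *VvSUC27*-OE fruits, and was not a DEG there (log2FC 0.62 and 1.06, limma adjusted p = 0.16 and 0.0112). gene18568 rose from 0.694 ± 0.190 FPKM in the WT to 3.31 ± 1.46 in *VvSUC11*-OE and 2.15 ± 0.335 FPKM in *VvSUC27*-OE fruits (log2FC 2.14 and 1.60), and had 1.22 ± 0.153 FPKM in *VvSUC12*-OE fruits. Its spread in *VvSUC11*-OE fruits was wide, from 2 to 4.88 FPKM.

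gene1894, annotated as WRKY12, was the single upregulated member of *VvSUC12*-OE fruits. WRKY12 keeps the walls of stem pith cells thin and promotes flowering. Its WT libraries had 12, 7 and 2 scaled counts, those of *VvSUC11*-OE fruits 37, 23 and 38, of *VvSUC12*-OE fruits 29, 40 and 16, and of *VvSUC27*-OE fruits 18, 14 and 23. All transgenic libraries thus lay above the WT, by a log2FC of 2.28, 2.02 and 1.48 (SE 0.47, 0.48 and 0.47). The last was not a DEG (limma adjusted p = 0.0123), but was 1.95 and one without WT replicate 1. The call in *VvSUC12*-OE fruits was lost without *VvSUC12*-OE replicate 1 or 2 (limma adjusted p = 0.0113 and 0.0167), and those in *VvSUC11*-OE and *VvSUC12*-OE fruits without the mean-variance trend in limma (adjusted p = 0.0164 and 0.0441).

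gene18164, annotated as WRKY31, had 0.385 ± 0.146 FPKM (SD, n = 3) in the WT, 1.26 ± 0.153 in *VvSUC11*-OE, 0.357 ± 0.0476 in *VvSUC12*-OE and 0.897 ± 0.298 FPKM in *VvSUC27*-OE fruits. It was upregulated in *VvSUC11*-OE fruits (log2FC 1.70, limma adjusted p = 0.000128) and in *VvSUC27*-OE fruits (1.19, limma adjusted p = 0.00523), the latter call lost without WT replicate 1 or 2 or without *VvSUC27*-OE replicate 1 or 3. gene1086, a WRKY48 gene, rose from 0, 7 and 0 scaled counts in the WT to 20, 19 and 20 in *VvSUC11*-OE libraries (log2FC 3.37, SE 0.68), a call lost without the trend (limma adjusted p = 0.0176). Of the libraries compared, only those of *VvSUC11*-OE fruits reached 10 scaled counts. gene1086 was thus tested only through the group where it was high. WRKY48 is a repressor of basal defence. The remaining upregulated members of *VvSUC11*-OE fruits were gene3952 (WRKY14; 1.13 ± 0.166 against 2.60 ± 0.239 FPKM, log2FC 1.16) and gene5028, the gene without a WRKY domain. The latter had 15 ± 1.75 FPKM in the WT and 40.8 ± 0.656, 23.1 ± 2.14 and 19.7 ± 1.64 FPKM in the lines, which makes it the one upregulated member above 10 FPKM in the WT. Without it, 6 genes with a WRKY domain were upregulated in *VvSUC11*-OE fruits.

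**Figure D5:**
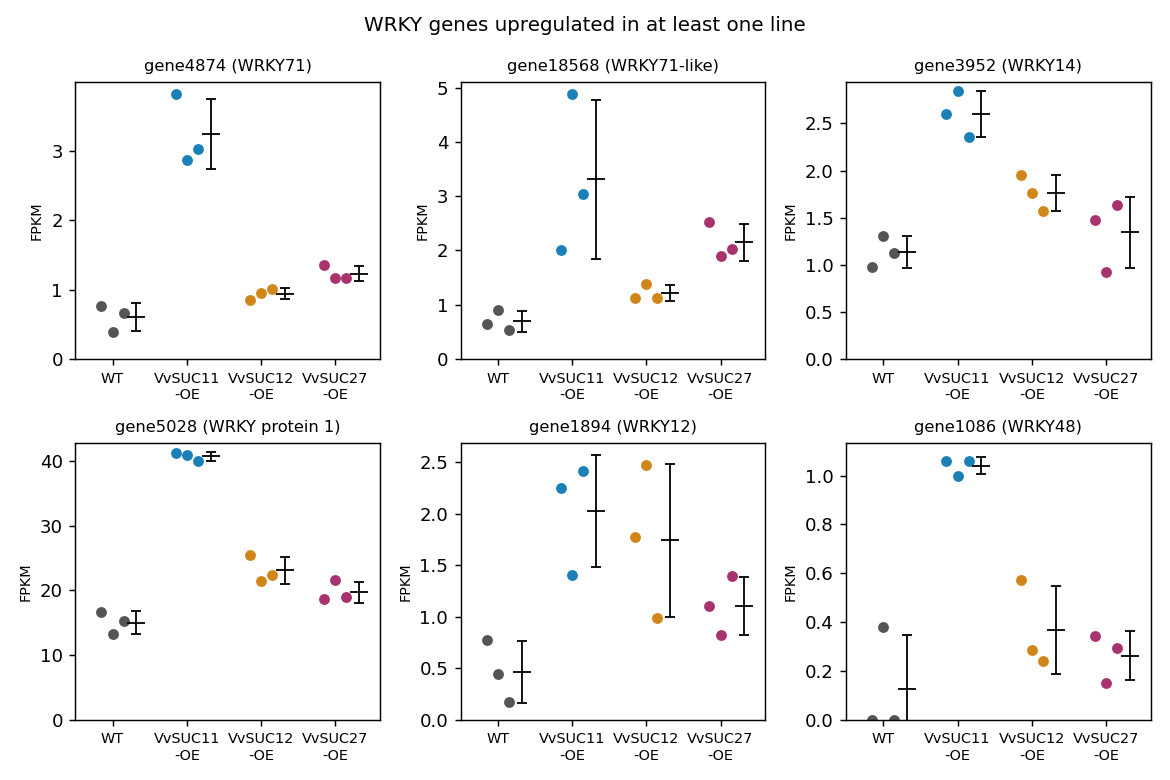
FPKM (vertical axes, linear, from 0) of 6 WRKY genes that were upregulated in at least one line; points are libraries, bars the mean ± SD of 3 (the lower bar of gene1086 in the WT ends at 0). The *VvSUC11*-OE points lie above the WT points in each panel, most clearly in gene5028 (40.0 to 41.2 against 13.2 to 16.7 FPKM).

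Between lines, 4 of 42 tested WRKY genes were upregulated and 5 downregulated in *VvSUC12*-OE against *VvSUC11*-OE fruits, where 4.74% and 5.51% of all tested genes were. These were gene2257, gene23921, gene9048 and gene19420, all higher in *VvSUC12*-OE fruits, and gene18164, gene4874, gene1086, gene23949 and gene18568, all lower. In *VvSUC27*-OE against *VvSUC11*-OE fruits, 2 of 41 were upregulated and 7 downregulated, with 3.67% and 6.99% of all tested genes. The upregulated ones were both WRKY40 genes, gene20249 and gene28822. gene28822, and gene1086 among the downregulated ones, passed the filter through 1 group alone. In *VvSUC27*-OE against *VvSUC12*-OE fruits, 3 of 40 were upregulated (gene18164, gene20249 and gene28822) and 6 downregulated, with 2.64% and 4.16% of all tested genes. The shares of the tested members up and down were 9.52% and 11.9%, 4.88% and 17.1%, and 7.5% and 15% in these comparisons. Their median log2FC was -0.26, -0.28 and -0.04, against -0.0071, 0.0068 and 0.0025 over all tested genes.

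Of the 43 tested genes, 19 were neither a DEG in any comparison nor among the 5 most abundant, with a log2FC against the WT between -0.77 and 1.31. Examples are gene1428 (WRKY23, a gene of auxin-dependent root and embryo development), with 3.12 ± 0.521 FPKM (SD, n = 3) in the WT and 5.75 ± 0.729, 6.02 ± 0.551 and 6.06 ± 0.856 FPKM in the lines, and gene18957 (WRKY20), with 7.68 ± 0.302 FPKM in the WT and 14.0 ± 0.490, 11.3 ± 0.657 and 9.86 ± 0.272 FPKM in the lines. Both were past the adjusted p in each comparison with the WT and below the threshold on the log2FC (0.86, 0.93 and 0.97 for gene1428, and 0.86, 0.53 and 0.37 for gene18957). gene25440 (WRKY44, known from trichomes and the seed coat) had a log2FC of -0.28, -0.77 and -0.28, the second past the adjusted p (limma adjusted p = 0.00073). Of the genes with the domain but not the word, gene22016, listed by RefSeq as *WRKY81*, had 71.9 ± 4.66 FPKM in the WT and 59.1 ± 0.387, 48.7 ± 3.66 and 38.2 ± 1.68 FPKM in the lines, and gene19047, listed as *WRKY2*, had 19.1 ± 0.465 and 28.6 ± 1.52, 24.9 ± 1.16 and 18.9 ± 0.405 FPKM.

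The 24 untested members had low values, with at most 19 scaled counts in any library. The value of 19 was that of gene10883 (WRKY51), with 8, 7 and 8 scaled counts in the WT and 8, 19 and 9 in *VvSUC11*-OE libraries. Of these, 4 had at most 1 scaled count in every library. Others were seen in 1 group. With at least 3 scaled counts summed over a group and at most 1 over the 9 libraries of the other groups, 7 members (10.4% of 67) were found in the WT alone, against 1.98% of all genes of the table. They were gene12931, gene13538, gene13539, gene13635, gene13636, gene28812 and gene6958, with a median of 9 scaled counts over the 3 WT libraries. The most was seen in gene13539 (annotated as WRKY15), with 7, 14 and 4 scaled counts in the WT. By the same measure, 1 member, gene21131 (WRKY56), was seen in *VvSUC11*-OE fruits alone, and 0 members in *VvSUC12*-OE or *VvSUC27*-OE fruits alone. The genes were picked for this pattern, and a difference of a few counts was not tested. WRKY genes were also weaker than the genes of the table (median 1.02 against 9.42 FPKM in the WT), so the shares do not compare genes of like level. Among the genes of the WT, gene13538 and gene13539 carry the same identifier, Solyc05g045880, and may not be separate cases.

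Other genes of the pathways in which WRKY factors act were taken from the annotation by words. Their counts stand against 7.39% of all tested genes up and 7.33% down in *VvSUC11*-OE, 3.31% and 5.3% in *VvSUC12*-OE, and 3.8% and 7.21% in *VvSUC27*-OE fruits, and nothing particular to a list is read from them. Of 54 genes of the MAP kinase cascade, 2 of 46 tested genes rose and 6 fell in *VvSUC11*-OE, 1 of 43 rose and 7 fell in *VvSUC12*-OE, and 1 of 44 rose and 6 fell in *VvSUC27*-OE fruits. The shares up and down were 4.35% and 13%, 2.33% and 16.3%, and 2.27% and 13.6%, and their median log2FC was -0.07, 0.04 and 0.04. gene14276 (MAP kinase 3, which is activated in immune responses) fell in each line, with a log2FC of -1.62, -1.17 and -2.07 (limma adjusted p = 2.73e-12, 1.56e-14 and 4.62e-17). gene4392, a MAP kinase kinase kinase 1-like gene, had a log2FC of -2.30, -1.12 and -4.22.

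Of 29 genes named for salicylic acid or its regulators, 5 of 20 tested genes rose and 6 fell in *VvSUC11*-OE, and 3 of 19 rose and 2 fell in each other line, or 25% and 30%, and 15.8% and 10.5%. gene29234 (TGA1, a bZIP partner of the salicylic acid receptors) rose in each line (log2FC 3.51, 2 and 2.21), while gene5010 (TGA6) fell (-1.07, -2.29 and -2.33). Of 17 pathogenesis-related genes, 7 of 14 tested genes rose and 2 fell in *VvSUC11*-OE, 1 of 11 rose and 2 fell in *VvSUC12*-OE, and 2 of 12 rose and 3 fell in *VvSUC27*-OE fruits. The shares were 50% and 14.3%, 9.09% and 18.2%, and 16.7% and 25%. The largest in level, gene23208 (STH-2-like), had 740 ± 24.1 FPKM (SD, n = 3) in the WT and 3230 ± 149, 1060 ± 18.8 and 1640 ± 56.1 FPKM in the lines. Among 75 pattern receptor genes, 4 of 56 tested genes rose and 8 fell in *VvSUC11*-OE, 1 of 55 rose and 6 fell in *VvSUC12*-OE, and 1 of 54 rose and 7 fell in *VvSUC27*-OE fruits, or 7.14% and 14.3%, 1.82% and 10.9%, and 1.85% and 13%. Among 125 resistance protein genes, 11 of 79 tested genes rose and 1 fell in *VvSUC11*-OE, 2 of 79 rose and 2 fell in *VvSUC12*-OE, and 8 of 82 rose and 3 fell in *VvSUC27*-OE fruits. The shares were 13.9% and 1.27%, 2.53% and 2.53%, and 9.76% and 3.66%.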

How the data were processed

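RNA of whole tomato fruits was sequenced in 12 libraries, and clean reads were mapped by the authors to the tomato genome with TopHat2. The study's methods link the tomato assembly SL2.50, while the TopHat2 version and the annotation are not given in the sources used here. The authors deposited FPKM for each library and a second signal, called counts in the table, which they had scaled to a common library size and rounded. It is therefore no read number, the true depth is unknown from it, and no count model was used. Columns with the authors' own EBSeq fold changes and FDR were not used, and tables that repeat the values were left out.

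Groups were compared with limma 3.58.1 in R 4.3.3 (files were read by the package data.table, version 1.17.8), by lmFit and a trended eBayes on log2(scaled count + 1). Each fit used the 6 libraries compared, and genes that reached 10 scaled counts in 3 or more of them. p-values were two-sided and Benjamini-Hochberg adjusted over all genes tested, and fold changes on this scale are understated for low genes. The test was checked on simulated data, with changes well past the threshold planted in genes that averaged at least 50 scaled counts in the WT. The check did not cover changes in weaker genes or changes close to the threshold. A group whose libraries all had 3 scaled counts or fewer gave a bound of the fold, against 3 counts per library. With 3 libraries against 3, an exact permutation test (two-sided) of FPKM cannot give less than p = 0.1. Between replicates, chi-square per degree of freedom ranged from 1.89 to 4.09 over 12 pairs, and no pair was counted as 1 sample. As the scaled counts are no read numbers, this ratio cannot tell technical from biological replicates. Python 3.11.15 with pandas 2.3.3, scipy 1.17.1 and matplotlib 3.10.9 was used for summaries and plots.

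Named genes were every WRKY gene that was a DEG in at least 1 of the 6 comparisons and the 5 with the highest WT FPKM (24 genes), and others are named as examples after their values were seen. The members and lists were chosen with earlier results of these data known. Of the members, 6 matched a RefSeq gene (assembly SLM_r2.1) through their KEGG identifier. Sequences and WRKY structural groups were not analysed here. A list of VQ proteins, partners of WRKY factors, matched 0 genes by name. Alternatives were other scalings, filters, pseudocounts, FPKM, 1 fit of all libraries, no variance trend, a replicate block, leaving out each library, and choosing members by the Pfam domain.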

Additional observations from a re-analysis of the deposited data

Results flagged for a closer look

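The following WRKY genes were called against the WT in one line, had a fitted change of the other sign in another line, and were DEGs between these lines, by limma's test of the difference itself, which does not use the WT. The libraries of the lines are the same in both kinds of test. A difference between lines above the threshold in size thus follows from the choice of genes, and the values are a description. In *VvSUC12*-OE against *VvSUC11*-OE fruits the log2FC was 2.39 for gene2257, 2.05 for gene23921 and -1.80 for gene18164. In *VvSUC27*-OE against *VvSUC11*-OE fruits it was 2.68 for gene20249 and 2.35 for gene28822. In *VvSUC27*-OE against *VvSUC12*-OE fruits it was 2.08 for gene20249, 1.42 for gene28822, 1.29 for gene18164 and -2.18 for gene2257. Of the opposite changes, those of gene2257 and gene18164 in *VvSUC12*-OE fruits (log2FC 0.04 and -0.10) and of gene28822 in *VvSUC27*-OE fruits (0.19) were close to 0 and not past limma's adjusted p.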

How the results depend on the processing

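Genes near either threshold and with few scaled counts limit these counts. Without a filter on low values, the downregulated WRKY DEGs were 17, 15 and 17 in the *VvSUC11*-, *VvSUC12*- and *VvSUC27*-OE lines. Among genes that averaged 50 scaled counts or more the upregulated ones were 2, 0 and 0, and the DEGs were 4 in *VvSUC12*-OE and 5 in *VvSUC27*-OE against *VvSUC11*-OE fruits, as fewer genes were tested. The upregulated count of *VvSUC12*-OE fruits was 3 with libraries brought to 1 common total, 2 with a pseudocount of 5 and 0 without the variance trend, and that of *VvSUC27*-OE fruits was 4 with all 12 libraries in 1 fit and 1 without the trend. Leaving out each library once, the upregulated counts were 6 to 7, 1 to 3 and 1 to 3, the downregulated ones 9 to 12, 7 to 9 and 10 to 11, and the DEGs between lines 6 to 9, 7 to 9 and 7 to 9. Choosing members by the Pfam domain gave 6, 1 and 2 up and 11, 9 and 11 down.

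Of the 41 called changes of named genes against the WT, 31 kept their direction and call under every alternative that tested them and 10 lost the call under at least 1. None was reversed. A gene tested through 1 group alone dropped out when a library of that group was left out, which also lowers the counts above. The decreases of gene21965 and gene28822 in *VvSUC11*-OE and of gene21175 in *VvSUC27*-OE fruits are among the 31. They were not checked against the loss of a WT library. Calls between lines were not checked gene by gene. Uncalled changes in *VvSUC12*-OE fruits turned sign without 1 library, with a range of -0.276 to 0.193 for gene18164, -0.037 to 0.109 for gene2257, -0.063 to 0.132 for gene5406 and -0.027 to 0.117 for gene6099 over the libraries left out.

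Same-numbered libraries did not deviate together (r of -0.052 to 0.032 across genes, 0 of 18 pairs above 0.1), so the numbers pair no samples. With the replicate number as a block, the upregulated WRKY DEGs were 7, 2 and 2, the downregulated 11, 9 and 11, and the DEGs between lines 9 in each comparison.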
